A study of Mus musculus with 18 samples.

Results

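Liver sinusoidal endothelial cells were followed through 10 genes that mark them or are enriched in them: *Stab1*, *Stab2*, *Lyve1*, *Clec4g*, *Fcgr2b*, *Pecam1*, *Kdr*, *Gpr182*, *Oit3* and *Dnase1l3*. Each was found by its symbol in all 18 libraries, and the 10 are among 23328 symbols with usable values, of 23352 in all. Whole-liver mRNA of 9 wild-type (WT) and 9 *Gpr180*KO mice was sequenced, with 1 library per mouse. All 18 were male C57BL/6J mice, 20 weeks old, and all were fed a high fat diet (HFD). The *Gpr180*KO mice lack an exon of *Gpr180* in every tissue and not in the liver alone, through a CRISPR/Cas9 deletion that shifts the reading frame. Values are FPKM, the fragments of a gene scaled to transcript length and to the total of mapped fragments in that library. The sample titles come in 2 styles, called here title series 1 (4 mice per genotype) and title series 2 (5 mice per genotype). The labels do not say what the styles stand for.

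Liver sinusoidal endothelial cells line the blood channels that run between plates of hepatocytes. They are perforated by open pores, rest on little basement membrane, and take up waste molecules from the blood with scavenger, lectin and Fc receptors. In chronic liver injury they can lose their pores and lay down basement membrane, a change known as capillarization. Since whole liver was measured, fewer endothelial cells and less RNA per endothelial cell cannot be told apart in any value given here.

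All 10 genes lie on the minus strand and are annotated as protein coding (GRCm38, limits of the gene as the files give them). The scavenger receptor genes *Stab1* (chr14:31139017-31168641) and *Stab2* (chr10:86841210-87007942) each have 69 exons in their longest transcript. *Lyve1* lies at chr7:110850607-110862953, *Clec4g* at chr8:3716071-3720651 and *Fcgr2b* at chr1:170960559-170976071. *Pecam1* lies at chr11:106654218-106715281, *Kdr* at chr5:75933270-75978428 and *Gpr182* at chr10:127749602-127751798. *Oit3* lies at chr10:59422960-59441779 and *Dnase1l3* at chr14:7965190-7994182. For 7 of the 10 genes none of the 75-base windows of the longest transcript, the length of the reads, occurs in a transcript of another gene. The share was 0.479% for *Stab1*, 0.871% for *Stab2* and 6.66% for *Fcgr2b*, whose windows include 94 that *Fcgr3*, a neighbouring Fc receptor gene, also holds. Exons of *Stab1*, *Stab2* and *Gpr182* overlap exons of a gene on the opposite strand (*Nt5dc2*, *Gm16268* and *Zbtb39*), and whether the fragments were counted by strand is not given in the sources used here.

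RefSeq promoters (GRCm38.p6) were at hand for 5 of the 10 genes, *Stab1*, *Stab2*, *Clec4g*, *Kdr* and *Fcgr2b*. The 250 bases before the start were searched on both strands for a fixed string of bases for each of 5 families of factors, called its core here. Other forms of the sites were not searched, so a window without the string can still hold a site of that family. ETS factors such as ERG and FLI1 are general regulators of endothelial genes, and the ETS core AGGAAG was found before *Stab1*, *Stab2* and *Clec4g* but not before *Kdr* or *Fcgr2b*. The shorter string GGAA within it does occur before *Kdr* and *Fcgr2b*. Of all 32851 promoters in the table, 29.5% hold AGGAAG in the same window. The 3 windows that hold it are shown 5′ to 3′ on the gene's strand, with the ETS core of either strand in capitals:
Stab1, chr14:31168642-31168891: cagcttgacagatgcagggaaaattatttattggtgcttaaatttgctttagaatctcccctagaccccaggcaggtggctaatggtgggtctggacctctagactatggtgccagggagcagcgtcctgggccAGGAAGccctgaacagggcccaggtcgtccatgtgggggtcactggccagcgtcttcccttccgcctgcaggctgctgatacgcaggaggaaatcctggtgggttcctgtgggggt
Stab2, chr10:87007943-87008192: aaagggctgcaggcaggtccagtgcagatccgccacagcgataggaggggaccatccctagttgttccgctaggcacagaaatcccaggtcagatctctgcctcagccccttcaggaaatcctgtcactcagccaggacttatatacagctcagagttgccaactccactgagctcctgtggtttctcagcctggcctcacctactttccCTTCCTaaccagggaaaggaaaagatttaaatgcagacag
Clec4g, chr8:3720652-3720901: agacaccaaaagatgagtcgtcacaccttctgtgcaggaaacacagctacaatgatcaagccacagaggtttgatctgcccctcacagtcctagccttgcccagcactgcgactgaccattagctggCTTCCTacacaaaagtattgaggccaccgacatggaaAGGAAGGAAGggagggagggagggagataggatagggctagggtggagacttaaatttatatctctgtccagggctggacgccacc
The *Clec4g* window holds 3 matches, of which 2 overlap in the run of repeated GGAA. The GATA core AGATAA (9.99% of all promoters) and the SOX core ACAAAG (16.5%) occurred in none of the 5 windows. The MAF core TGCTGA (16.1% of all promoters) occurred before *Stab1* alone, and the KLF core GGGCGG (32.7%) before *Kdr* alone. A match is a description of the letters and not a bound site.

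*Gpr180* was measured at 6.79 ± 1.99 FPKM (SD, n = 9) in WT livers and at 1.6 ± 0.371 FPKM (n = 9) in *Gpr180*KO livers, with no overlap, so each library matched its label. Hepatocyte markers led all libraries, and 21 of 24 pan-endothelial markers reached a mean of 1 FPKM. Read counts were not used here. Relative to the deepest library, depth as estimated from the FPKM was 62.9 to 100% in WT and 44.4 to 93.3% in *Gpr180*KO livers of title series 1, and 60.7 to 76.8% and 62.4 to 84.7% in title series 2. For the genes other than *Clec4g* the deposited bounds were not symmetric about the value: the lower lay 5.09 to 20.8% of the value below it and the upper 0.851 to 20.7% above it. For *Clec4g* the deposited FPKM fell outside its own bounds in all 18 libraries, as did 9.83% of all positive values, so its bounds were not used.

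The library of the *Gpr180*KO mouse KO51 (title series 2) stood apart by transcript length. The genes tested were put into 4 equal classes by the length of their longest transcript. In KO51 the class of shortest transcripts had a median 0.42 above each gene's median library on the log2(FPKM + 0.1) scale, and the class of longest transcripts a median of -1.0. The difference between these classes was -1.42 in KO51 and between -0.07 and 0.12 in the other 17 libraries. A length was found for 94.4% of these genes. Among the 10 genes, *Clec4g* has the shortest transcript (1441 bases), and *Kdr* (5924), *Stab1* (7999) and *Stab2* (8228) the longest. KO51 had 1.53 times the mean of the other 4 *Gpr180*KO livers of its series for *Clec4g*, and 0.634 times for *Stab2*, 0.743 for *Stab1* and 0.43 for *Kdr*. The order was not strictly that of length, since KO51 had 0.438 times the mean of these livers for *Lyve1* (2893 bases) and 1.29 times for *Dnase1l3* (4747 bases). How far the length pattern carries into the values of the 10 genes was not tested, and values without KO51 are given beside those of all libraries for the comparisons of the 10 genes and of the lists.

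**Figure D1:**
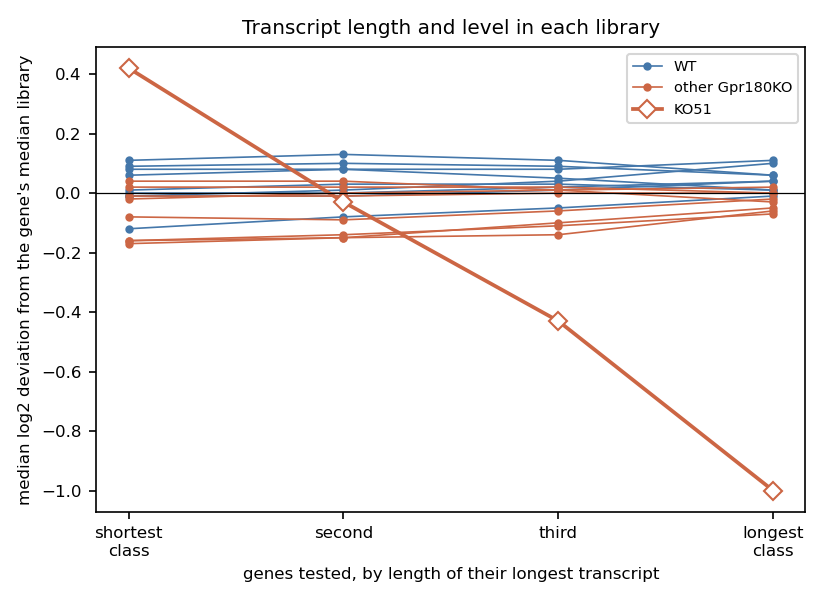
Median deviation of the genes of each length class (horizontal axis, genes tested ordered by their longest transcript) from each gene's median library, in log2(FPKM + 0.1), with 1 line per library. The open diamonds of KO51 run from 0.42 to -1.0, and the other 17 libraries stay close to 0.

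None of the 10 genes was called different between the genotypes by limma's moderated test with Benjamini-Hochberg adjustment over the 10835 genes with a mean of at least 1 FPKM. Among all genes tested, 4.28% were called lower and 0.452% higher in *Gpr180*KO livers, at an adjusted p under 0.05. At an unadjusted p under 0.05, 1 of the 10 genes, *Gpr182*, was lower, while 22.2% of all genes tested reached such a p in either direction. The log2 fold change (*Gpr180*KO minus WT, on the log2(FPKM + 0.1) scale) was below 0 for 9 of the 10 genes, with a median of -0.13, and the median over all genes tested was also -0.13. With the title series as a block, a fit in which 9.52% of all genes were called lower and 1.13% higher, 0 of the 10 genes were called and *Gpr182* and *Pecam1* were lower at an unadjusted p under 0.05, against 26.9% of all genes in either direction. Without KO51 the shares were 6.46% lower and 0.819% higher, and again 0 of the 10 genes were called, with a median of -0.09. After median-of-ratios scaling, which sets the typical gene near 0, the median of the 10 genes was 0.02 and so was that of all genes.

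**Figure D2:**
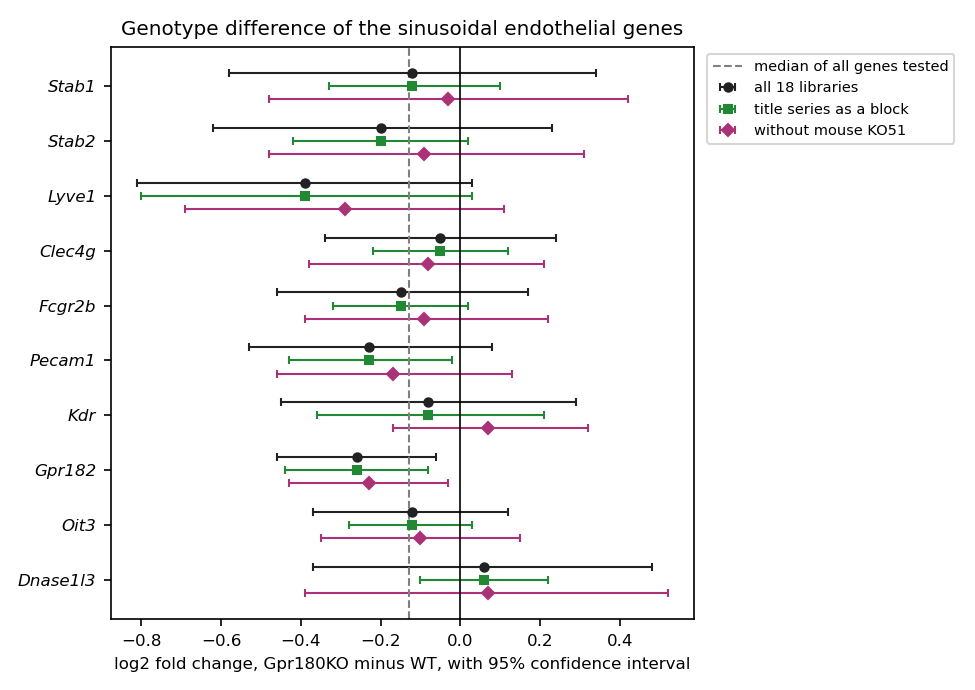
Log2 fold change of each gene, *Gpr180*KO minus WT, with its 95% confidence interval (bars) from limma over all 18 libraries (circles), with the title series as a block (squares) and without KO51 (diamonds). The dashed line is the median of all genes tested, -0.13. The interval over all 18 libraries includes 0 for every gene but *Gpr182*.

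*Stab1* and *Stab2* encode stabilin-1 and stabilin-2, large scavenger receptors that clear hyaluronan, oxidized lipoproteins and other ligands from the blood. *Stab1* ranged from 4.86 to 11.7 FPKM (median 6.64) in WT and from 3.99 to 10.2 FPKM (median 7.24) in *Gpr180*KO livers. The genotypes overlapped over most of their ranges, and the log2 fold change was -0.12 (SE 0.22, 95% confidence interval -0.58 to 0.34, limma's adjusted p = 0.763). *Stab2* ranged from 7.09 to 14.3 FPKM (median 8.75) in WT and from 4.72 to 12.7 FPKM (median 9.89) in *Gpr180*KO livers. Its lowest values were those of KO51 (4.72) and KO53 (5.71), and the log2 fold change was -0.20 (SE 0.20, interval -0.62 to 0.23, adjusted p = 0.575). Without KO51 the log2 fold change was -0.03 for *Stab1* and -0.09 for *Stab2*. With the title series as a block the intervals narrowed to -0.33 to 0.10 for *Stab1* and -0.42 to 0.02 for *Stab2*.

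*Lyve1* encodes a hyaluronan receptor of sinusoidal and lymphatic endothelium. It ranged from 3.91 to 10 FPKM (median 7.18) in WT and from 2.99 to 8.34 FPKM (median 5.2) in *Gpr180*KO livers. Its log2 fold change had the largest size of the 10 genes, -0.39, and also a wide interval (SE 0.20, -0.81 to 0.03, limma's adjusted p = 0.268). *Lyve1* spread more between livers than most of the genes: its coefficient of variation was 30.6% in WT and 31.4% in *Gpr180*KO livers. In WT livers of title series 2 it was 6.32, 10, 9.74, 8.94 and 3.91 FPKM, and in *Gpr180*KO livers of that series 2.99 (KO51), 5.2, 6.07, 7.71 and 8.34 FPKM. Without KO51 the log2 fold change was -0.29 (adjusted p = 0.37).

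*Clec4g*, which encodes the C-type lectin LSECtin, was the most abundant of the 10 genes. It ranged from 42.8 to 70.0 FPKM (median 50.4) in WT and from 37.9 to 63.6 FPKM (median 61.9) in *Gpr180*KO livers. The log2 fold change was -0.05 (SE 0.14, interval -0.34 to 0.24, limma's adjusted p = 0.844), and without KO51 it was -0.08. *Fcgr2b* encodes the inhibitory Fc gamma receptor, which on sinusoidal endothelium removes small immune complexes. It ranged from 26.1 to 53.3 FPKM (median 31.8) in WT and from 23.0 to 43.3 FPKM (median 30.7) in *Gpr180*KO livers. The log2 fold change was -0.15 (SE 0.15, interval -0.46 to 0.17, adjusted p = 0.569), and the 2 genotypes overlapped in both title series. Without KO51 it was -0.09 (adjusted p = 0.756).

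*Pecam1* encodes the adhesion molecule CD31, found on endothelium in general. It ranged from 5.34 to 10.9 FPKM (median 8.67) in WT and from 4.94 to 8.48 FPKM (median 7.61) in *Gpr180*KO livers, with a log2 fold change of -0.23 (SE 0.15, interval -0.53 to 0.08, limma's adjusted p = 0.365). In title series 1 the WT livers had 10.5, 10.9, 8.67 and 10.4 FPKM and the *Gpr180*KO livers 7.61, 8.48, 8.32 and 7.91 FPKM. There the genotypes did not overlap, the only such case among the 10 genes, while 14.7% of all genes did not overlap in the same 8 libraries. Within title series 1 the log2 fold change was -0.31 (limma's adjusted p = 0.0503), and in title series 2 the genotypes overlapped. Over both series without KO51 it was -0.17, and *Pecam1* was not called.

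*Kdr* encodes VEGF receptor 2, the main signalling receptor for VEGF-A on endothelium. It ranged from 7.76 to 12.6 FPKM (median 10.4) in WT and from 4.09 to 12.7 FPKM (median 11.2) in *Gpr180*KO livers. The lowest value was that of KO51, and the next lowest *Gpr180*KO liver had 8.48 FPKM. The log2 fold change was -0.08 (SE 0.18, interval -0.45 to 0.29, limma's adjusted p = 0.811), and without KO51 it was 0.07 (SE 0.12, interval -0.17 to 0.32, adjusted p = 0.74). The sign of the *Kdr* difference thus changed when that 1 library was left out.

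*Gpr182* encodes an atypical chemokine receptor of endothelial cells and had the smallest standard error relative to its difference. The WT livers of title series 1 had 21.1, 17.6, 16.3 and 21.0 FPKM and those of title series 2 had 15.3, 16.0, 20.7, 16.7 and 16.5 FPKM. The *Gpr180*KO livers had 17, 17.3, 16.9 and 15 FPKM in title series 1 and 12.7 (KO51), 14.2, 11, 14.6 and 16.3 FPKM in title series 2. All 9 *Gpr180*KO livers lay below the WT mean of 17.9 FPKM, yet the ranges overlapped in both series. The log2 fold change was -0.26 (SE 0.10, interval -0.46 to -0.06, limma's adjusted p = 0.124). Without KO51 and with no block it was -0.23 (adjusted p = 0.142). With the title series as a block the adjusted p was 0.0532 over all 18 libraries. In block fits chosen after the values were seen it was 0.0304 without WT mouse W319, 0.0486 without KO51 and 0.036 without KO56. After median-of-ratios scaling the log2 fold change was -0.11 (adjusted p = 0.529).

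*Oit3* encodes a secreted protein with a zona pellucida domain, and *Dnase1l3* a secreted nuclease that degrades circulating chromatin. *Oit3* ranged from 11.4 to 19.7 FPKM (median 15.5) in WT and from 11.2 to 16.5 FPKM (median 15.1) in *Gpr180*KO livers, with a log2 fold change of -0.12 (SE 0.12, interval -0.37 to 0.12, limma's adjusted p = 0.539). *Dnase1l3* ranged from 10.4 to 22.8 FPKM (median 13.4) in WT and from 10.3 to 22.9 FPKM (median 15.4) in *Gpr180*KO livers. It was the only one of the 10 genes with a log2 fold change above 0, at 0.06 (SE 0.20, interval -0.37 to 0.48, adjusted p = 0.877). No WT liver lay above the highest *Gpr180*KO liver for *Dnase1l3*, whereas 3 of 9 WT livers did for *Oit3*. In title series 1 alone the log2 fold change of *Oit3* was -0.20 (adjusted p = 0.109). Without KO51 it was -0.10 for *Oit3* (adjusted p = 0.636) and 0.07 for *Dnase1l3* (adjusted p = 0.886).

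**Figure D3:**
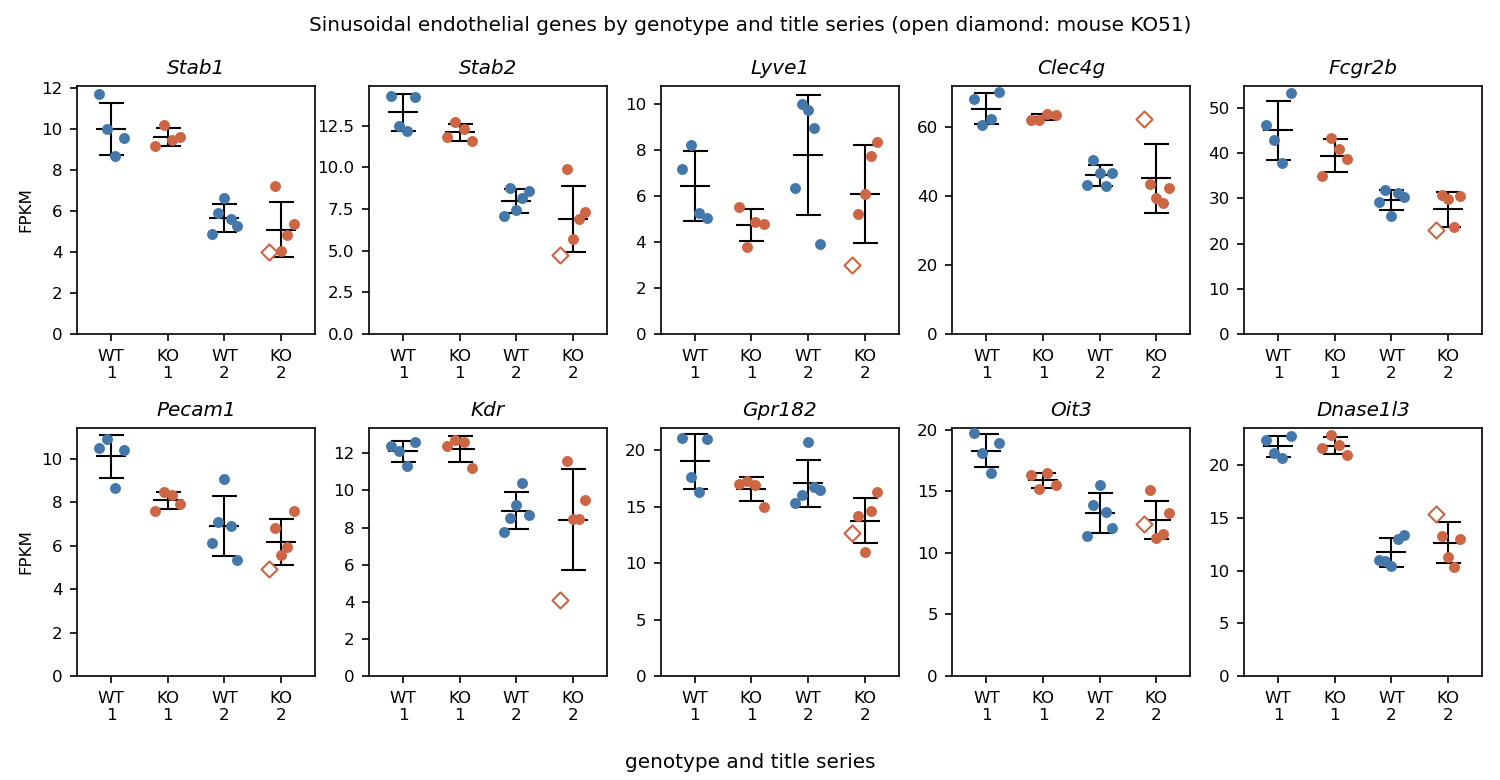
FPKM of each gene (vertical axis from 0) in WT and *Gpr180*KO livers of title series 1 and 2. Each point is 1 mouse, the black bars are the mean and SD of 4 or 5 mice, and the open diamond is KO51. The 4 mice of either genotype in title series 1 sit above nearly all mice of title series 2 for *Stab1*, *Stab2*, *Clec4g*, *Fcgr2b* and *Dnase1l3*, while the genotypes overlap.

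For 8 of the 10 genes the difference between the title series was larger in size than that between the genotypes. This comparison was chosen after the values were seen, and the labels do not say whether the series differ in animals, RNA or sequencing. With genotype in the model, limma called 8 of the 10 genes lower in title series 2, against 19.1% of all genes tested lower and 3.78% higher. The median log2 difference (title series 2 minus title series 1) of the 10 genes was -0.51, and that of all genes -0.11. Without KO51 it was -0.49, 8 genes were again lower, and 30.3% of all genes were lower and 11.5% higher. After median-of-ratios scaling the all-gene median was 0, the median of the 10 genes was -0.40 and 8 were lower. The shift was not particular to the 10 genes. Without that scaling, 10 of 19 other sinusoidal genes were lower in title series 2 (median -0.39). So were 9 of 21 pan-endothelial genes (-0.42) and 7 of 10 zonation genes (-0.73), and 0 in these lists were higher. Lists of other cells held lower genes too: 4 of 12 Kupffer genes (-0.33), 4 of 12 stellate genes (-0.43) and 2 of 7 recruited macrophage genes (-0.68). The same held for 5 of 9 scavenger receptor genes (-0.44) and 3 of 6 Fc receptor genes (-0.46). Of 7 genes of VEGF ligands and receptors 1 was lower (median 0.06). Of 9 endothelial transcription factor genes 1 was lower and 1 higher (median 0.18), and the hepatocyte list had a median of 0.11.

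*Dnase1l3* had the lowest adjusted p of the 10 genes here. It ranged from 20.7 to 22.9 FPKM in title series 1 and from 10.3 to 15.4 FPKM in title series 2. The log2 difference was -0.84 (SE 0.08, limma's adjusted p = 3.53e-06). For *Stab1* the ranges were 8.66 to 11.7 and 3.99 to 7.24 FPKM, with a log2 difference of -0.87 (SE 0.10, adjusted p = 6.22e-05). For *Stab2* they were 11.6 to 14.3 and 4.72 to 9.89 FPKM, with a log2 difference of -0.78 (SE 0.10, adjusted p = 0.00016). The scavenger receptor genes and the nuclease gene were thus all at 0.547 to 0.58 of their title series 1 level on this scale. *Fcgr2b* ranged from 34.9 to 53.3 FPKM in title series 1 and from 23.0 to 31.8 FPKM in title series 2, with a log2 difference of -0.56 (SE 0.08, adjusted p = 0.000323). Without KO51 the log2 difference was -0.88 for *Dnase1l3*, -0.83 for *Stab1*, -0.72 for *Stab2* and -0.53 for *Fcgr2b*.

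These 4 genes did not overlap between the title series, while 2.23% of all genes tested did not. *Clec4g* overlapped through KO51 alone, whose 62.3 FPKM lay among the 60.4 to 70.0 FPKM of title series 1, while the other libraries of title series 2 did not exceed 50.4 FPKM. Without KO51, 5 of the 10 genes and 5.69% of all genes did not overlap. The log2 difference was -0.50 for *Clec4g*, -0.53 for *Kdr*, -0.48 for *Pecam1* and -0.40 for *Oit3* (limma's adjusted p from 0.000484 to 0.0108). Without KO51 these were -0.56, -0.41, -0.45 and -0.40. *Gpr182* had a log2 difference of -0.22 (SE 0.08, adjusted p = 0.071), and of -0.20 without KO51 (adjusted p = 0.0583). *Lyve1* had one of 0.25 (SE 0.20, adjusted p = 0.388), without KO51 one of 0.36 (adjusted p = 0.105), and after median-of-ratios scaling without KO51 its difference was 0.46 (adjusted p = 0.0314).

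**Figure D4:**
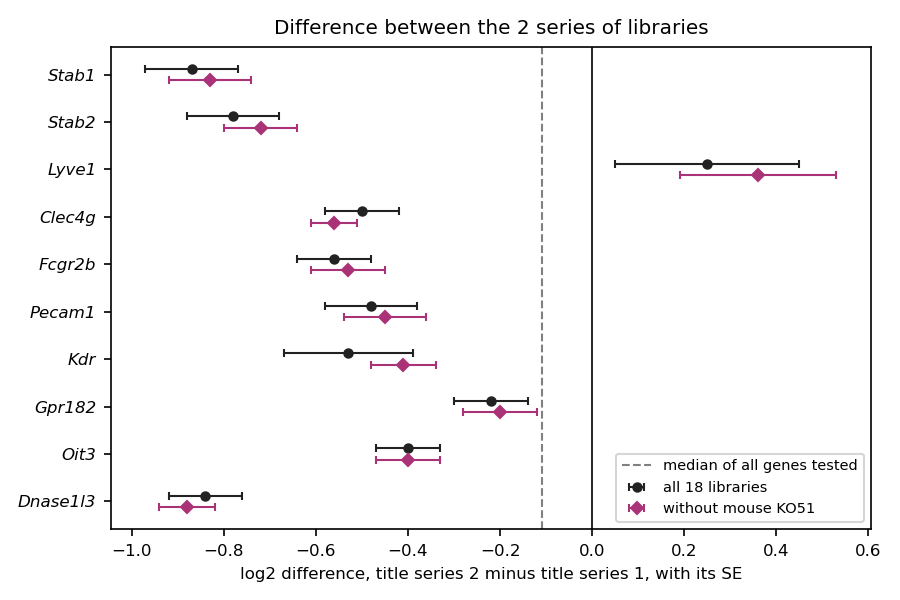
Log2 difference of each gene, title series 2 minus title series 1, with genotype in the model, over all 18 libraries (circles) and without KO51 (diamonds), with its standard error (bars). The dashed line is the median of all genes tested, -0.11. *Dnase1l3*, *Stab1* and *Stab2* lie farthest below 0 and *Lyve1* lies above 0.

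A genotype difference that depends on the title series was called for none of the 10 genes: limma's interaction called 0 of them and 0% of all genes. Of the 10835 genes tested 833 had an unadjusted p under 0.05, none of the 10 among them. The interaction ranged from -0.17 (*Kdr*, SE 0.28) to 0.16 (*Pecam1*, SE 0.20) on the log2 scale. Without KO51 the interaction again called 0 of all genes, and 1405 of 10867 genes but none of the 10 had an unadjusted p under 0.05. A count of 0 in only 10 genes does not set them apart from the rest.

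Between the libraries the 10 genes kept a common order in part. By mean FPKM over the 18 libraries, which allows for transcript length, *Clec4g* (53.7) and *Fcgr2b* (34.7) led and were in that order in all 18 libraries. *Dnase1l3* (16.5) and *Gpr182* (16.4) had nearly the same mean over all libraries, but *Dnase1l3* was above *Gpr182* in 8 of 8 libraries of title series 1 and in 2 of 10 of title series 2. *Oit3* followed at 14.8 and was above *Kdr* (10.2) in all 18 libraries. The order of 3 further pairs of neighbours also differed between the series. *Kdr* was above *Stab2* (9.78) in 3 of 8 libraries of title series 1 and 8 of 10 of title series 2, and *Pecam1* (7.67) above *Stab1* (7.34) in 3 of 8 and 9 of 10. *Stab1* was above *Lyve1* (6.33) in 8 of 8 and 3 of 10. *Clec4g* lay above 88.2% of the genes tested and *Lyve1* above 45.1%.

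**Figure D5:**
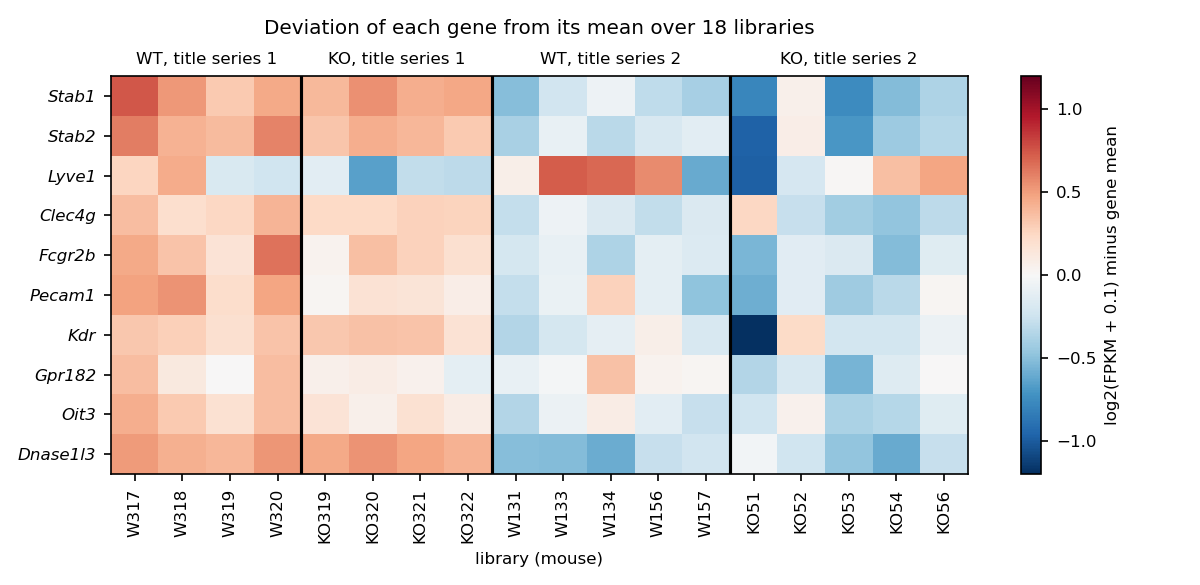
Deviation of log2(FPKM + 0.1) from each gene's mean over 18 libraries (colour), with the libraries as columns ordered by title series and genotype and the 10 genes as rows. The 8 libraries of title series 1 are above the mean for most genes, KO51 is far below it for *Kdr*, *Stab2* and *Lyve1* and above it for *Clec4g*, and *Lyve1* has a pattern of its own.

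*Stab2* was used to look for genes that varied in the same way between mice, after the mean of each genotype in each title series was removed (18 libraries, log2(FPKM + 0.1), Pearson's r as a description). The 8 genes most like *Stab2* were *Tecpr1* (r = 0.94), *Myo10*, *Asap1*, *Leng8*, *Nisch*, *Mafg*, *Gigyf1* and *Agrn* (0.89). None of these is in the endothelial lists, and 2 of the 8 were still among the first 8 without KO51. *Kdr* and *Stab1*, each with r = 0.82, ranked 43 and 51 of 10834 genes. *Clec4g* changed from r = -0.33 to 0.64 and *Dnase1l3* from 0.01 to 0.61 when KO51 was left out. In the same step *Kdr* changed to 0.73, *Stab1* to 0.79, *Pecam1* from 0.43 to 0.23, *Fcgr2b* from 0.58 to 0.44 and *Lyve1* from 0.25 to -0.20. The median r of the other 9 genes with *Stab2* was 0.45 over all libraries and 0.61 without KO51, against 0.10 and 0.01 over all genes. For 21 pan-endothelial genes the median r was 0.31, and 0.48 without KO51. With or without KO51, 0 of them were among the 100 genes most like *Stab2*. Lists of other cells were not compared in this way. The libraries share depth, series and tissue composition with each other, so these values describe 18 livers and no more.

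Other endothelial genes were summarised from lists chosen with earlier results of these data known. Of 21 pan-endothelial genes tested, 0 were called by limma between the genotypes, with a median log2 fold change of -0.15. With the title series as a block 1 was lower, *Clec14a* (-0.35, adjusted p = 0.0411), in a fit that called 9.52% of all genes lower. *Eng*, the endoglin gene, had -0.20 (SE 0.11), *Egfl7* had -0.10 and *Cdh5*, the VE-cadherin gene, had -0.29 (SE 0.14). Of 19 other sinusoidal genes 2 were lower, the fatty acid translocase gene *Cd36* at -0.73 (SE 0.19, adjusted p = 0.0337) and *Sparcl1* at -0.54 (SE 0.11, adjusted p = 0.0154), and after median-of-ratios scaling only *Cd36* was still called (adjusted p = 0.049). The median of these 19 genes was -0.11. The next most abundant of them after *Cd36*, *Aqp1* and *Fcna*, had -0.11 and 0.32 and were not called. Of 9 scavenger receptor genes, *Cd36* was lower and *Scarb1*, which takes up cholesterol from high-density lipoprotein, was higher (0.45, SE 0.08, adjusted p = 0.00677). Hepatocytes also express both of these genes. In each of these lists 1 call was left without W317, W318, W320, W133, KO52, KO53 or KO54. Of 9 transcription factor genes, *Maf* alone was lower (-0.48, SE 0.13, adjusted p = 0.0416, and 0.176 after median-of-ratios scaling), and *Gata4* had -0.23 (adjusted p = 0.172). The list had a median of -0.23, and *Zfpm1*, its most abundant gene, had 0.01. The *Maf* call was also lost with TPM scaling, with no FPKM minimum, with a minimum of 5 FPKM, in either title series alone and when any 1 of 12 of the 18 libraries was left out.

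Of 10 genes of capillarization and continuous endothelium, 3 were lower, the basement membrane genes *Col4a1* (-0.79, SE 0.21, adjusted p = 0.0393), *Col4a2* (-0.76, SE 0.21) and *Lamb1* (-0.51, SE 0.15). The median of the list was -0.50. After median-of-ratios scaling 0 of the 10 were called, 0 were called with no FPKM minimum, and 0 were called when any 1 of 10 libraries (W317, W318, W320, W133, W134, W156, KO52, KO53, KO54 or KO56) was left out. *Plvap*, a gene of the diaphragms that close endothelial pores, had -0.53 (adjusted p = 0.0553, and 0.0285 with the block). Of 6 genes of endothelial adhesion and activation 3 were lower, *Icam1* (-0.87, SE 0.21, adjusted p = 0.0297), *Vcam1* (-0.63, SE 0.16) and *Cd151* (-0.40, SE 0.08), and *Icam1* alone was called after median-of-ratios scaling. Leaving out W317, W318, W320, W133 or KO52 also left 1 of these calls. In title series 2 alone limma called 1 gene of all those tested, and none in any of these lists. With all 18 libraries and no block, none was called of 7 genes of VEGF ligands and receptors, 9 angiocrine genes, 10 zonation genes, 5 hyaluronan genes, 6 Fc receptor genes or 3 lymphatic genes. *Vegfa* had -0.06, *Cxcl12* 0.08, *Ltbp4* -0.12, *Habp2* 0.06, *Fcgrt* 0.12 and *Prox1* -0.38. Without KO51 these were 0, 0.12, -0.11, 0.09, 0.03 and -0.04, and KO51 had the lowest *Prox1* value, 1.26 FPKM. With the title series as a block, a fit that called 9.52% of all genes lower, 1 gene was called lower in each of 4 of these lists. These were the angiocrine gene *Igfbp7* (limma's adjusted p = 0.0495), the zonation gene *Thbd* (0.0492), the hyaluronan gene *Tmem2* (0.0406) and the lymphatic gene *Reln* (0.015). *Reln* is also in the stellate list. Single calls in lists of this size are not read as results about the lists. The block also raised the count of adhesion genes called lower from 3 to 5 with *F11r* and *Jam2*. Without KO51, where 6.46% of all genes were called lower, so were the VEGF gene *Vegfb*, the angiocrine genes *Igfbp7* and *Hgf* and the Fc receptor gene *Fcer1g*. In the capillarization list *Plvap* was then called and *Col4a2* was not.

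Markers of other liver cells that share some of these genes were read beside them. Of 12 Kupffer cell genes 0 were called (median -0.16), and the summed FPKM of the list was 267 to 570 in WT and 295 to 469 in *Gpr180*KO livers. Of 7 genes of recruited macrophages 5 were lower (*Spp1*, *Trem2*, *Gpnmb*, *Ccr2* and *Cd68*), with a median of -1.43 and a summed FPKM of 61.8 to 279 in WT and 37.5 to 73.2 in *Gpr180*KO livers, and 1 was called without W317, W318 or W133, 2 without KO53 and 3 without KO54. Of 12 stellate cell genes 4 were lower (*Col1a1*, *Col3a1*, *Pdgfrb* and *Pdgfra*), led in adjusted p by *Col3a1* (-1.73, SE 0.33, adjusted p = 0.0132), with a summed FPKM of 58.1 to 161 and 46.7 to 80.9. *Col4a1*, *Col4a2*, *Lamb1*, *Icam1* and *Vcam1* are also expressed by stellate cells or macrophages, and the part of those cells in their differences was not tested. Of 10 hepatocyte genes 0 were called (median 0.22). The gluconeogenic gene *Pck1* among them was higher with the block (0.71, adjusted p = 0.0268), after median-of-ratios scaling (0.86, adjusted p = 0.0472) and without KO51 (0.78, adjusted p = 0.0407). Of 2 cholangiocyte genes tested both were lower, *Sox9* (-0.70, adjusted p = 0.0454) and *Spp1*, which is also in the macrophage list. Only 1 of these 2 calls was left after median-of-ratios scaling, where *Sox9* had an adjusted p of 0.138, and without any 1 of 14 of the 18 libraries. The counts of the other lists called between the genotypes were unchanged without KO51. The lymphatic markers *Pdpn* and *Mmrn1* had means of 0.127 and 0.0986 FPKM, and no B, T or NK cell gene reached a mean of 1 FPKM. *Prox1* of the same lymphatic list had a mean of 11.7 FPKM, and which cells it came from was not tested.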

How the data were processed

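Liver mRNA of 18 mice was analysed. The authors prepared TruSeq mRNA libraries, sequenced single reads of 75 bases, aligned them to mm10 (GRCm38 in the submitters' processing notes) with the TopHat Alignment application, whose output included FPKM, and deposited FPKM values for 23847 entries per mouse. The annotation behind the FPKM values is not given in the sources used here. The other deposited columns used, the lower and upper bounds of each FPKM, are in the same unit per the file headers. Entries sharing a symbol were summed (23352 symbols), and 24 genes with any of the 190 failed estimates were left out. The locus starts of the files were read as counted from 0.

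Genotype was taken from the labels. Log2(FPKM + 0.1) of the 10835 genes with a mean of at least 1 FPKM was fitted in R 4.3.3 by limma 3.58.1 (lmFit and trended eBayes), two-sided, and p-values were adjusted by Benjamini-Hochberg over all of them, with calls at an adjusted p under 0.05. FPKM are not counts, so no count test was run and depth was only estimated relative to the deepest library. The estimate was the most common FPKM ratio of weakly expressed genes between that library and each of the others. Nothing says how the mice were distributed over cages or litters. Pearson's r between libraries was 0.967 to 0.993, and no 2 libraries were identical. Tables were handled in Python 3.11.15 (numpy 2.4.6, pandas 2.3.3), figures in matplotlib 3.10.9. The fit was also run on simulated data with independent noise for each gene and no library like KO51. That run therefore cannot show how the fit behaves with such a library. Exons, overlaps, transcript lengths and shared 75-base windows came from GENCODE vM21, promoters from RefSeq.

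The 10 genes and all lists were chosen with earlier results of these data known. Named were the 10 genes, *Gpr180*, up to 3 genes of highest mean FPKM and 6 with the lowest adjusted p past the threshold in each list, and the 8 genes most like *Stab2*. Not all of the 3 genes of highest mean FPKM were named in each list. The genes *Plvap*, *Gata4*, *Igfbp7*, *Reln*, *F11r*, *Vegfb* and *Fcer1g*, which are among those 3 in their lists, were chosen after values were seen. So were the transcript length check and the genes named outside this rule (*Pdpn*, *Mmrn1*, *Clec14a*, *Thbd*, *Tmem2*, *Jam2*, *Hgf* and *Pck1*). *Adgre1* is *Emr1* in the files. Alternatives tried were a pseudocount of 1 or of 0.01, a minimum of 5 FPKM or no minimum, median-of-ratios and TPM scaling, the title series as a block or alone, weights per library, and each library left out. The block with each library left out and the comparison of the title series were added after seeing the data.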

Additional observations from a re-analysis of the deposited data

Results flagged for a closer look

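The level of each of the 10 genes was examined in 6 groups of libraries, each genotype over all libraries and within each title series, for 1 library far from the rest (Dixon's criterion at the 95% level). Of 60 such groups 3 had one, and chance alone would give about 1 in 20. *Clec4g* was high in KO51, at 62.3 FPKM, against 37.9 to 43.3 FPKM in the other *Gpr180*KO livers of title series 2. *Kdr* was low in KO51, at 4.09 FPKM, among the 9 *Gpr180*KO livers. *Gpr182* was low in the *Gpr180*KO mouse KO322, at 15 FPKM, against 16.9 to 17.3 FPKM in the other *Gpr180*KO livers of title series 1. KO51 is the library whose values fell with transcript length.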

How the results depend on the processing

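For the 10 genes, the counts called lower and called higher between the genotypes stayed at 0 under all 29 alternatives, as did the count with an interaction under the 24 run for it. The median log2 fold change of the 10 genes was between -0.20 and 0.02, and was above 0 (0.02) only after median-of-ratios scaling, with or without the title series as a block. That scaling also gave values above 0, with or without the block, for *Stab1* (0.03), *Clec4g* (0.10), *Kdr* (0.07), *Fcgr2b* (0.01) and *Oit3* (0.03), since it moved the all-gene median from -0.13 to 0.02. *Kdr* was at 0.01 in title series 1 alone, and library weights gave 0.04 for *Stab1* and 0.07 for *Kdr*. With single libraries left out the log2 fold change was -0.01 to 0.14 for *Dnase1l3*, -0.13 to 0.07 for *Kdr* and -0.09 to 0.00 for *Clec4g*, and none passed the threshold. The block with single libraries left out called 0 or 1 of the 10 genes (*Gpr182*, without W319, KO51 or KO56). From 7 to 9 of the 10 genes were lower in title series 2 under the alternatives run for that comparison. The count of all genes called was 513. It was 238 with a mean of at least 5 FPKM, 291 after median-of-ratios scaling (145 lower and 146 higher, against 464 and 49), 1153 with the block, 1 in title series 2 alone, 1331 with library weights, and 129 (without WT mouse W133) to 920 (without WT mouse W157) with single libraries left out. Without KO51, 1 of the other 9 genes instead of 2 was among the 100 genes most like *Stab2*. The causes of these moves were not tested. No paired analysis was possible because the mouse numbers name different animals in each genotype. Depth was only estimated relative to the deepest library and read counts were not used, so no counting error was given.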
